A study of Mus musculus with 14 samples.

Results

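The genes described here are 45 members of the DNA replication machinery, out of 20614 named genes with a probe on the array. They were chosen by name, with earlier results of these data known. They comprise the factors that license origins, the helicase, the polymerases and their clamp, the enzymes that supply nucleotides, and the factors that copy chromatin behind the fork. Each had at least 1 probe, 5 of them had a second, and all 45 were among the 14870 named genes bright enough to be tested. The study asked how transcripts in the mouse heart differ at 3 and 14 days after a myocardial infarction (MI).

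All samples were ventricular border zone from male C57BL/6 mice operated on at 8 weeks of age. In the MI groups the left anterior descending coronary artery was tied permanently, and tissue was taken 3 days (5 arrays) or 14 days (5 arrays) later. Sham mice (4 arrays) had the same surgery with no ligation, and the labels do not say when their hearts were taken. The design text speaks of 10 ligated and 5 sham mice with 1 sample on each array, so 4 sham arrays were analysed here. The labels name no transgene. They mention purifying mRNA on poly-T beads and also state that 200 ng of total RNA was labelled per sample.

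Replication starts where the origin recognition complex, Cdc6 and Cdt1 load the ring-shaped MCM helicase onto DNA in G1 phase, a step that geminin blocks later in the cycle. Cdc45 and the GINS complex then switch the helicase on, primase with DNA polymerase alpha starts each strand, and the polymerases epsilon and delta extend them, held to DNA by the sliding clamp PCNA that the RFC complex loads. Many of these genes are transcribed under E2F factors when a cell enters S phase. Adult cardiomyocytes seldom divide, whereas fibroblasts, endothelial cells and leukocytes of a healing infarct can.

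Intensities were measured in 1 colour (Cy3), and a level below is log2 of the intensity minus the array's 75th percentile, which lay between 188.6 and 443.0 intensity units. On the 10 arrays with scanner output (4 sham, 2 at 3 days, 4 at 14 days) between 54.8% and 66.1% of the probes were well above background and none was saturated. The 12 cardiomyocyte markers (such as Myh6, Tnnt2 and Ryr2) were well above background on each of these 10 arrays. Correlations between arrays of a group across probes were 0.989 to 0.992 in sham, 0.987 to 0.992 at 3 days and 0.979 to 0.991 at 14 days. MI 14 days replicate 3 had 68 non-uniform spots, more than any other scanner array. Changes are log2 differences ± SE from limma, with n = 4 for sham and n = 5 for each MI group, and past the threshold means a Benjamini-Hochberg adjusted p under 0.05 over all 32261 tested probes. The number of arrays limits the precision.

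At 3 days after MI, 38 of the 45 members (84.4%) were higher than in sham, 1 was lower and 6 were not past the threshold. Among all tested probes 25.5% were higher and 39.7% were lower in the same comparison, and with 1 probe for each named gene 29.8% and 40.5%. The median change over the members was 1.97, from -1.37 to 3.76, against -0.19 over all tested probes. By the fitted change, 31 members were past the threshold and at least 2-fold higher, as were 13.9% of the named genes. These 31 include Cdc6 and Orc1, whose probes were mostly not above background outside the 3-day group, and the bound on Orc1 is under 2-fold. Over the 43 other members, well above background on all 10 scanner arrays, 36 were higher, 1 was lower and 29 were higher by 2-fold. Over the 13330 named genes of the same kind these shares were 28.8%, 41.9% and 11.5%. The 5 arrays at 3 days did not overlap the 4 sham arrays for 38 of the 45 members and for 56.8% of the probes tested. The 2 slides that held both groups each set 1 sham array against 1 array at 3 days. There 32 and 27 members were higher and 0 lower by limma (at an unadjusted p under 0.05, 32 and 33 higher, 0 and 1 lower), with a spread assumed from the other arrays and no replicate of their own. In bulk tissue, more cells of a dividing type and more replication RNA per cell cannot be told apart.

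**Figure D1:**
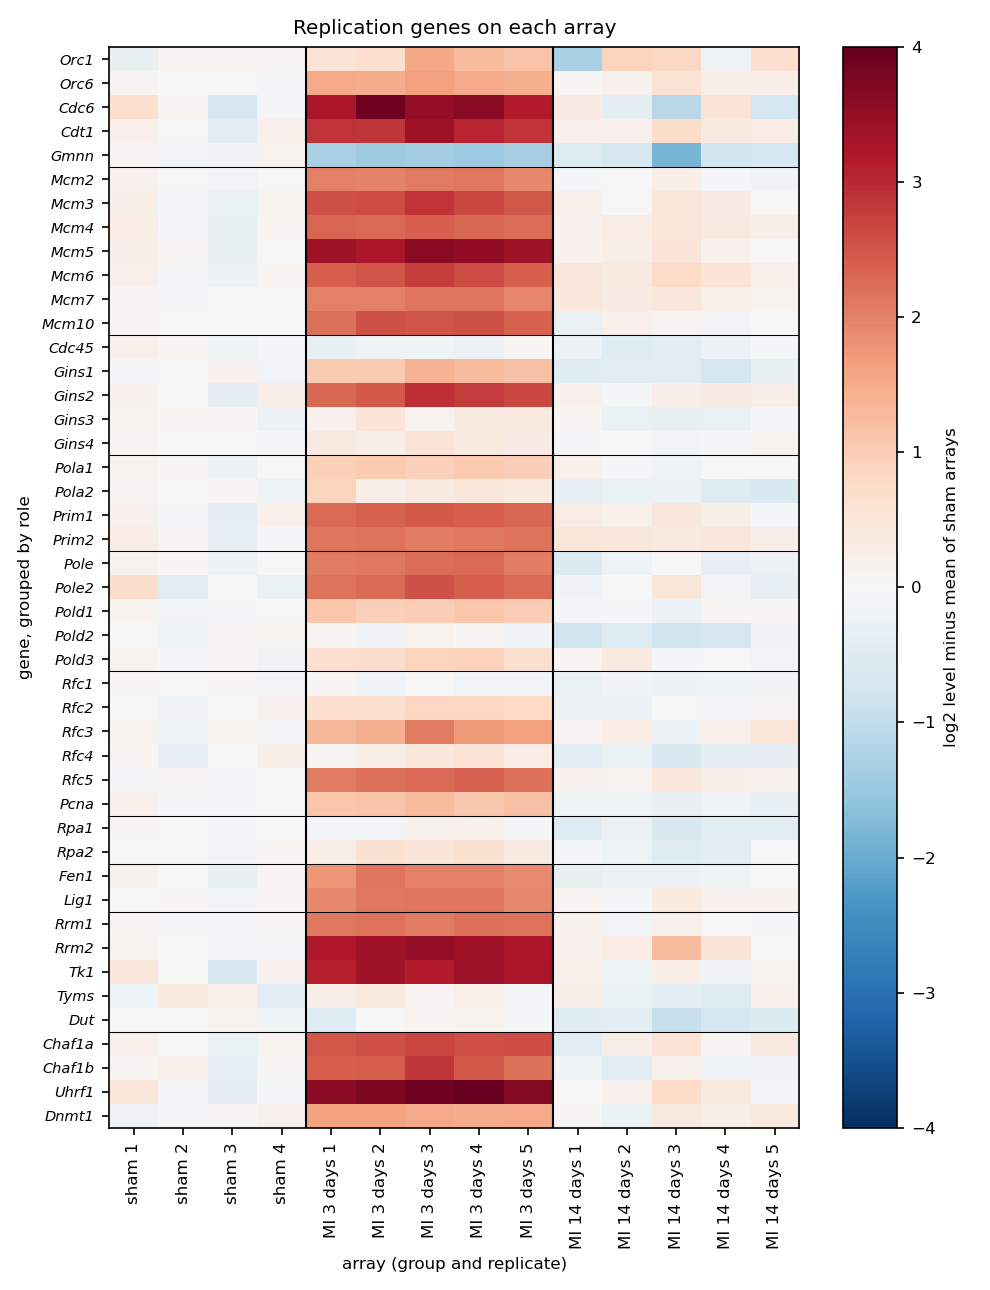
Each row is 1 of the 45 replication genes, grouped by role, and each column is 1 array of sham (4), MI 3 days (5) or MI 14 days (5). The colour is the level (log2 intensity minus the array's 75th percentile) minus the gene's mean over the sham arrays. The 5 columns at 3 days stand out for most genes, with mean member levels of 1.37 to 1.57 against -0.25 to 0.01 in sham.

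The arrays of a group were close to each other for the whole list. The mean level over the 45 members was -0.25 to 0.01 on the sham arrays, 1.37 to 1.57 at 3 days and -0.20 to -0.09 at 14 days. Within sham, replicate 1 held the highest value for 28 members and replicate 3 the lowest for 27, so part of the spread in sham was shared by many members. At 3 days replicate 3 was highest for 21 members, and at 14 days replicate 3 was highest for 20.

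Among the 5 licensing genes, 4 were higher at 3 days and Gmnn was lower. Cdt1 stood at -0.45, -0.64, -1.08 and -0.44 in sham, at 2.25, 2.22, 2.75, 2.40 and 2.25 at 3 days and at -0.46, -0.47, 0.09, -0.26 and -0.35 at 14 days. The sham and 3-day arrays were far apart, and Cdt1, which brings the MCM ring to the origin, was 8.14-fold higher (3.02 ± 0.16, adjusted p = 4.56e-09). Geminin, encoded by Gmnn, binds Cdt1 and stops it from loading more helicase. Levels of Gmnn were 2.39, 2.17, 2.14 and 2.41 in sham, 0.99, 0.87, 0.89, 0.84 and 0.95 at 3 days and 1.76, 1.63, 0.42, 1.53 and 1.58 at 14 days. Its sham arrays were the highest of all, the 3-day arrays the lowest apart from 1 array at 14 days (replicate 3), and Gmnn was 2.58-fold lower (-1.37 ± 0.21, adjusted p = 6.49e-05). It was the 1 member past the threshold in that direction, on the 1 probe it has, and the call held in 21 of 21 alternatives outside single slides. Over all alternatives, single slides included, its change lay between -1.46 and -1.19. On the 2 slides with 1 array of each group Gmnn differed by -1.30 and -1.46.

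Cdc6, the ATPase that joins the origin complex to load the helicase, was near the detection limit outside the 3-day group. Cdc6 had levels of -3.97, -4.55, -5.25 and -4.70 on the 4 sham arrays, -1.36, -0.72, -1.09, -1.01 and -1.45 at 3 days and -4.28, -4.97, -5.73, -4.07 and -5.33 at 14 days. Its probe was well above background on 1 of 4 sham arrays, on both scanner arrays at 3 days and on 1 of 4 arrays at 14 days. The fitted difference at 3 days was 3.49 ± 0.33, an 11.3-fold change. A second Cdc6 probe, not well above background on any sham array, was at least 3.37-fold higher. Orc1, the large ATPase subunit of the origin recognition complex, was not well above background on any sham array or any scanner array at 14 days. The bound on its rise at 3 days was at least 1.46-fold (fitted difference 1.03 ± 0.38), and the call held in 12 of 20 alternatives. It ended with no probe filter, with scanner signals, normexp or a slide block on the 10 scanner arrays, and without sham replicate 1 or replicate 3, 4 or 5 at 3 days. Orc6, its smallest partner, was 2.86-fold higher (1.51 ± 0.10, adjusted p = 2.05e-08). Orc1 and Cdc6 were tested only because they were bright at 3 days, so a rise there was a condition of their being tested.

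The helicase genes rose together, with 7 of 7 higher at 3 days and changes between 2.02 and 3.43. Mcm2 to Mcm7 encode the ring itself, and Mcm10 helps to open it. Mcm5 stood at -0.62, -0.76, -1.15 and -0.82 in sham, at 2.56, 2.39, 2.77, 2.71 and 2.54 at 3 days and at -0.68, -0.57, -0.33, -0.67 and -0.83 at 14 days. No array at 3 days came near the sham or 14-day arrays, and Mcm5 was 10.8-fold higher (3.43 ± 0.12, adjusted p = 3.93e-10). Levels of Mcm6 were 2.13, 1.87, 1.70 and 2.05 in sham, 4.33, 4.44, 4.71, 4.54 and 4.34 at 3 days and 2.39, 2.30, 2.71, 2.48 and 2.13 at 14 days. Mcm6 was 5.79-fold higher (2.53 ± 0.13, adjusted p = 3.34e-09), and its levels at 14 days lay slightly above those of sham with some overlap. Mcm3 was 6.22-fold higher (2.64 ± 0.13), Mcm10 5.38-fold higher (2.43 ± 0.10) and Mcm4 4.94-fold higher (2.30 ± 0.11). Mcm7 and Mcm2 had the smallest changes of the group, 2.05 ± 0.08 and 2.02 ± 0.09, each still about 4-fold (4.15 and 4.04).

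The partners that activate the helicase were not uniform. Cdc45, which travels with the MCM ring at the fork, was not past the threshold at 3 days. Cdc45 had levels of -1.52, -1.63, -1.93 and -1.81 on the 4 sham arrays, -2.02, -1.93, -1.90, -1.94 and -1.64 at 3 days and -1.94, -2.25, -2.18, -1.96 and -1.79 at 14 days. The 3 groups overlapped, and the difference at 3 days was -0.16 ± 0.12, adjusted p = 0.236. The GINS complex has 4 subunits, all of which were higher but by very different amounts. Gins2 stood at -2.02, -2.22, -2.56 and -1.95 in sham, at 0.12, 0.27, 0.72, 0.60 and 0.48 at 3 days and at -2.02, -2.27, -1.93, -1.85 and -1.92 at 14 days. Gins2 was 6.17-fold higher (2.62 ± 0.15, adjusted p = 8.05e-09) without overlap. Gins1 was 2.29-fold higher (1.19 ± 0.10), whereas Gins4 and Gins3 differed by 0.38 ± 0.08 and 0.31 ± 0.12. The call for Gins3 ended without sham replicate 4 or without replicate 2, 4 or 5 at 3 days.

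Primase and DNA polymerase alpha make the RNA-DNA primers. Their 4 genes were all higher at 3 days, with larger values for the primase subunits. Prim1, the catalytic subunit of primase, was 5.12-fold higher (2.36 ± 0.12), and Prim2, its large subunit, was 4.36-fold higher (2.12 ± 0.11). Pola1, the catalytic subunit of polymerase alpha, was 2.01-fold higher (SE of the log2 difference 0.09). Levels of Pola2 were -2.43, -2.56, -2.43 and -2.75 in sham, -1.65, -2.31, -2.17, -2.10 and -2.16 at 3 days and -2.86, -2.82, -2.79, -3.05 and -3.15 at 14 days. Its accessory subunit Pola2 was 1.38-fold higher (0.46 ± 0.13), and the 3-day arrays lay just above the sham arrays.

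For the polymerases that extend the strands, 4 of 5 genes were higher. Pole, the catalytic subunit of the leading-strand polymerase epsilon, was 4.41-fold higher (2.14 ± 0.11), and Pole2, its second subunit, was 5.03-fold higher (2.33 ± 0.21). A dimmer second probe for Pole, well above background on 1 of 4 sham arrays, differed by 0.01 ± 0.34 (adjusted p = 0.984), so the probes of this gene disagree. Values for the delta subunits were smaller. Pold1, the catalytic one, was 2.04-fold higher (1.03 ± 0.08), and Pold3 was 1.7-fold higher (0.77 ± 0.11). Pold2 had levels of 0.20, 0.06, 0.28 and 0.36 on the 4 sham arrays, 0.33, 0.09, 0.35, 0.28 and 0.09 at 3 days and -0.58, -0.30, -0.56, -0.44 and 0.08 at 14 days. Pold2, which links the catalytic subunit to the rest, overlapped fully between sham and 3 days (0.01 ± 0.13, adjusted p = 0.973).

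The clamp loader also differed widely among its subunits. Rfc5 stood at 0.07, 0.20, 0.07 and 0.09 in sham, at 2.20, 2.32, 2.37, 2.47 and 2.30 at 3 days and at 0.28, 0.25, 0.57, 0.33 and 0.29 at 14 days. Rfc5, a small loader subunit, was 4.66-fold higher (2.22 ± 0.08, adjusted p = 4.98e-10). Levels of Rfc1 were 2.63, 2.58, 2.63 and 2.47 in sham, 2.64, 2.45, 2.58, 2.46 and 2.48 at 3 days and 2.31, 2.45, 2.35, 2.37 and 2.44 at 14 days. Rfc1, the large subunit, stayed within a narrow band on all 14 arrays and differed at 3 days by -0.06 ± 0.07, adjusted p = 0.507. Between these, Rfc3 was 3.09-fold higher (1.63 ± 0.16), Rfc2 1.68-fold higher (0.75 ± 0.09) and Rfc4 1.26-fold higher (0.33 ± 0.12). A second probe for Rfc4 was 1.94-fold higher (0.96 ± 0.20), and the call on the first ended without sham replicate 2 or without replicate 3 or 4 at 3 days. Pcna had levels of 3.39, 3.09, 3.09 and 3.16 on the 4 sham arrays, 4.30, 4.31, 4.44, 4.26 and 4.35 at 3 days and 3.02, 2.98, 2.88, 2.97 and 2.84 at 14 days. Pcna, the sliding clamp, was 2.22-fold higher (1.15 ± 0.08, adjusted p = 4.36e-08), and the 5 arrays at 3 days lay between 4.26 and 4.44.

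RPA coats the single-stranded DNA that the helicase exposes. Rpa1 stood at 4.06, 3.99, 3.92 and 4.01 in sham, at 3.90, 3.89, 4.16, 4.19 and 3.91 at 3 days and at 3.49, 3.74, 3.37, 3.58 and 3.59 at 14 days. Rpa1, its large subunit, overlapped between sham and 3 days and differed by 0.01 ± 0.09, adjusted p = 0.926. Rpa2 was 1.39-fold higher (0.47 ± 0.12). Lagging-strand fragments are trimmed by the nuclease Fen1 and sealed by the ligase Lig1. Fen1 was 3.91-fold higher (1.97 ± 0.11) and Lig1 4.14-fold higher (2.05 ± 0.10), both without overlap.

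**Figure D2:**
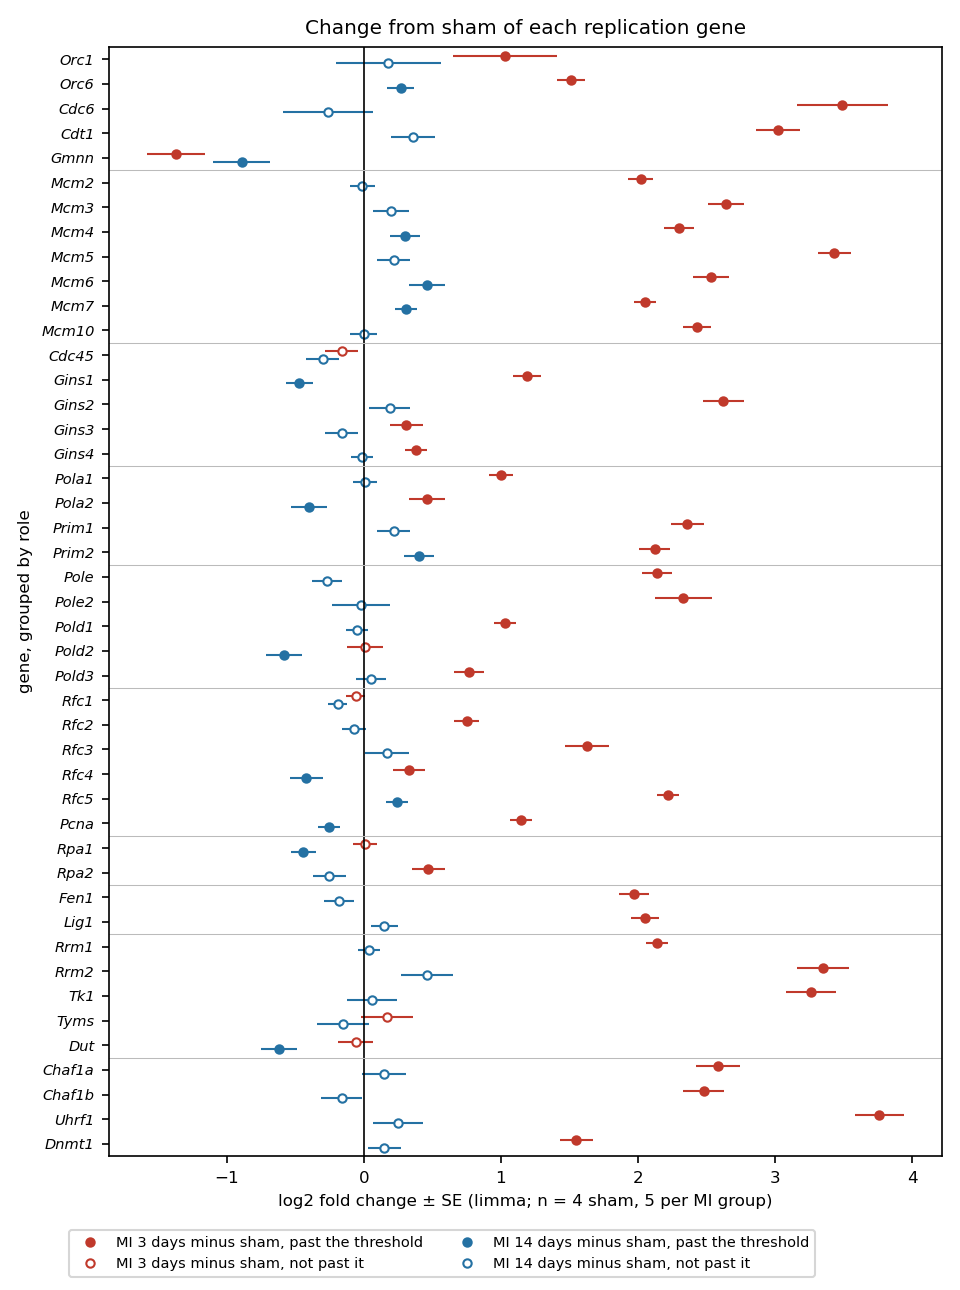
Points are the log2 differences from sham of each of the 45 genes, grouped by role, at 3 days (red) and 14 days (blue), with SE from limma (n = 4 sham arrays, 5 in each MI group). Filled points are past the threshold, and the 3-day points reach 3.76 for Uhrf1 while the 14-day points lie between -0.89 and 0.46.

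Of the 5 genes that supply deoxynucleotides, 3 were much higher and 2 were not past the threshold. Levels of Rrm2 were -0.30, -0.46, -0.52 and -0.51 in sham, 2.76, 2.94, 3.09, 2.95 and 2.78 at 3 days and -0.27, -0.13, 0.81, 0.06 and -0.42 at 14 days. Rrm2, the cell-cycle-regulated small subunit of ribonucleotide reductase, was 10.2-fold higher (3.35 ± 0.19, adjusted p = 9.4e-09). Its large subunit Rrm1 was 4.42-fold higher (2.14 ± 0.08). Tk1 had levels of -0.46, -0.86, -1.49 and -0.72 on the 4 sham arrays, 2.22, 2.50, 2.25, 2.57 and 2.37 at 3 days and -0.68, -1.08, -0.61, -1.01 and -0.75 at 14 days. Thymidine kinase 1, encoded by Tk1, salvages thymidine and was 9.6-fold higher (3.26 ± 0.18, adjusted p = 5.37e-09). The genes of de novo thymidylate synthesis behaved otherwise on these probes. Tyms stood at -1.97, -1.42, -1.61 and -2.22 in sham, at -1.55, -1.41, -1.72, -1.61 and -1.86 at 3 days and at -1.58, -2.08, -2.18, -2.33 and -1.61 at 14 days. Tyms, thymidylate synthase, overlapped in all 3 groups and differed at 3 days by 0.17 ± 0.19, adjusted p = 0.428. Levels of Dut were 1.25, 1.22, 1.35 and 1.04 in sham, 0.74, 1.22, 1.32, 1.37 and 1.15 at 3 days and 0.72, 0.80, 0.30, 0.51 and 0.63 at 14 days. Dut, which removes dUTP and supplies dUMP to Tyms, differed by -0.06 ± 0.13, adjusted p = 0.727.

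The 4 genes of chromatin copying were all higher at 3 days. Uhrf1 had levels of -0.69, -1.21, -1.54 and -1.22 on the 4 sham arrays, 2.40, 2.57, 2.72, 2.78 and 2.51 at 3 days and -1.16, -0.99, -0.41, -0.78 and -1.21 at 14 days. Uhrf1, which reads hemimethylated DNA and brings in the maintenance methyltransferase, was 13.6-fold higher (3.76 ± 0.18, adjusted p = 2.19e-09) and had the largest fitted change of the 45 genes on the brightest probe of each. A second Uhrf1 probe, dimmer and well above background on 1 of 4 sham arrays, had a fitted rise of 1.88 ± 0.42. Its sham and 3-day arrays overlapped. This second probe was tested only because it was bright at 3 days, so a rise there was a condition of its being tested. Dnmt1, the maintenance methyltransferase itself, was 2.92-fold higher (1.55 ± 0.12). Chaf1a and Chaf1b, subunits of the CAF-1 chaperone that sets histones on new DNA, were 5.99-fold higher (2.58 ± 0.16) and 5.56-fold higher (2.48 ± 0.15), and the second Chaf1b probe was 14.0-fold higher (3.81 ± 0.27).

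Promoters of members were read to see whether genes that moved together at 3 days share the letters of an E2F site. RefSeq promoters (build GRCm38.p6, 250 bases before to 50 after each start) were found for 37 members, 6 of them with more than 1, and those of Gmnn, Mcm4, Gins1, Gins2, Gins4, Prim2, Pole and Rfc2 were not analysed here. The E2F site was searched as TTTCCCGC, TTTCGCGC, TTTGCCGC or TTTGGCGC on both strands, and 16 of 37 members (43.2%) held it, against 2.60% of 27025 genes and 2.26% of 32851 promoters. Among the members with a fitted rise of at least 2-fold at 3 days, 14 of 26 held a match (53.8%), and among the other members 2 of 11 (18.2%). Both Orc1 and Cdc6 hold a match and were tested only through their brightness at 3 days, and without them the counts are 12 of 24 and 2 of 11. The stretches below are the 200 bases before the start, 5′ to 3′ on the gene's strand, with E2F letters on either strand in capitals. Shown with a match are Mcm5 (chr8:75109309-75109508, plus strand), Mcm6 (chr1:128359706-128359905, minus strand), Cdc6 (chr11:98907951-98908150, plus strand) and the second promoter of Uhrf1 (chr17:56304113-56304312, plus strand), all of genes higher at 3 days. Shown with none are Rfc1 (chr5:65335640-65335839, minus strand) and Rpa1 (chr11:75348384-75348583, minus strand), which were not past the threshold.
Mcm5: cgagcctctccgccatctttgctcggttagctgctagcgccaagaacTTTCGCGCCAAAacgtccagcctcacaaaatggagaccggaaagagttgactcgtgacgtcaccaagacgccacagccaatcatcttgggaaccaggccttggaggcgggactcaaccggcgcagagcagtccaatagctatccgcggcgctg
Mcm6: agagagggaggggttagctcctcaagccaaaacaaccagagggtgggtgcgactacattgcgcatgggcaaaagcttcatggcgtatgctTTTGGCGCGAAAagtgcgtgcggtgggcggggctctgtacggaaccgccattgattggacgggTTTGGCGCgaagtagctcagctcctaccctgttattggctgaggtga
Cdc6: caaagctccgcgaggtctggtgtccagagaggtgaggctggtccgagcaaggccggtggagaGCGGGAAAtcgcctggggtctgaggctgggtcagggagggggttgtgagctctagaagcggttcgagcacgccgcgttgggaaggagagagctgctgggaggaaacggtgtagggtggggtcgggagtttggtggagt
Uhrf1: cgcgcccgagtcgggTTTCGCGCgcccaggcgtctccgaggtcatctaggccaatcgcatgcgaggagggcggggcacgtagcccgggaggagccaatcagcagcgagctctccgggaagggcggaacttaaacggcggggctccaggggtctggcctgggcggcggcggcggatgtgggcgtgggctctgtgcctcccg
Rfc1: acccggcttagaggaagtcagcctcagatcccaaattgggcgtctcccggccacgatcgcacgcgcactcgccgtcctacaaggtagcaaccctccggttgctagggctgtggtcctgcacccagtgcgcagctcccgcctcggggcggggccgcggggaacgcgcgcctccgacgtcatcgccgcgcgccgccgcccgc
Rpa1: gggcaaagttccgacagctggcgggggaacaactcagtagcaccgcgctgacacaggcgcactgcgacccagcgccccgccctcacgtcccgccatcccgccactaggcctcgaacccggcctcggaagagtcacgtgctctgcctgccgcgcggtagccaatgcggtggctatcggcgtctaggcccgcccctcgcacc

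In Mcm5 the capitals hold 2 overlapping matches, 1 on each strand, and in Mcm6 they hold 3, of which 2 overlap. The 16 members with a match were all higher at 3 days, with a median change of 2.05, as were the 14 left without Orc1 and Cdc6 (median 2.05). Of the 21 with a promoter but no match, 15 were higher (median 1.51), among them Rrm2, Tk1 and Rfc5, so several strongly changed members held no match. The CHR element of genes expressed in G2 and mitosis, searched as TTTGAA or TTCGAA, was in 8 of 37 members (21.6%) and in 21.7% of genes. CCAAT was in 23 of 37 members (62.2%) and in 41.1% of genes. Matches between motifs may overlap, and a match of letters is not a measured binding site.

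**Figure D3:**
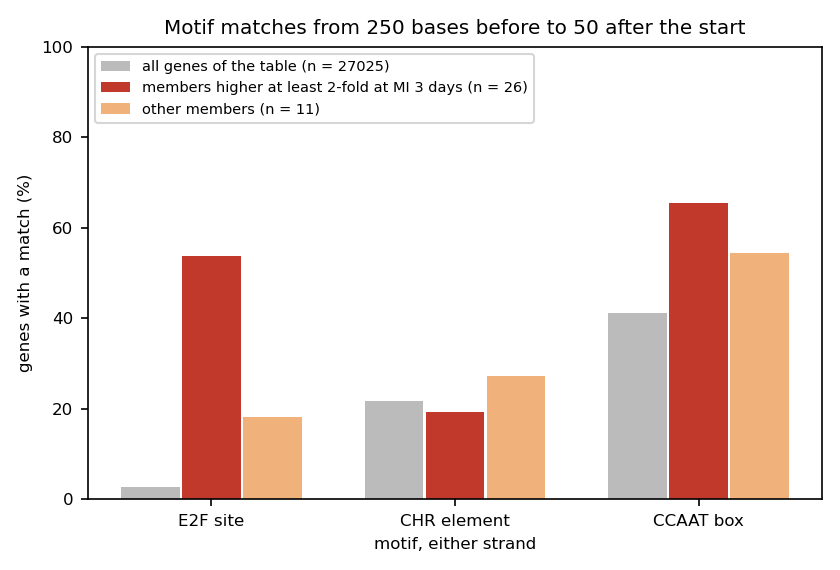
Bars, from 0, are the percentage of genes whose RefSeq promoter holds an E2F, CHR or CCAAT motif. The sets are all 27025 genes, the 26 members with a fitted rise of at least 2-fold at 3 days (Orc1 and Cdc6 included) and the 11 other members with a promoter. In that order the E2F bars are 2.60%, 53.8% and 18.2%, and the CHR bars are 21.7%, 19.2% and 27.3%.

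At 14 days the members' median was back at the sham level. Compared with sham, 6 were higher, 8 lower and 31 not past the threshold, and the median change was -0.00. These shares (13.3% higher, 17.8% lower) are near those of all tested probes (12.8% and 19.8%) and of the named genes (15.9% and 24.2%), and the groups did not overlap for 9 members, against 27.4% of probes. None of the 45 was higher by 2-fold, as 4.67% of the named genes were.

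The 6 that were higher included 3 of the 7 helicase genes. Mcm6 was 1.38-fold higher (0.46 ± 0.13), Mcm7 1.24-fold higher (0.31 ± 0.08) and Mcm4 1.23-fold higher (0.30 ± 0.11). Prim2 was 1.31-fold higher (0.40 ± 0.11), Orc6 1.2-fold higher (0.27 ± 0.10) and Rfc5 1.18-fold higher (0.24 ± 0.08). The count of 6 fell to 3 without sham replicate 3 or 4, or without replicate 3 or 4 at 14 days, and to 0 by limma with slide as a block on the 10 scanner arrays (3 at an unadjusted p under 0.05). The 2 slides that held both groups set 2 sham arrays against 1 at 14 days and 1 against 3, too few to read anything from the calls there.

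The 8 that were lower came from several roles, with none from the helicase, Okazaki fragment or chromatin copying genes. Gmnn was 1.85-fold lower (-0.89 ± 0.21), and Dut was 1.54-fold lower (-0.62 ± 0.13). Pold2 was 1.5-fold lower (-0.58 ± 0.13) and Rpa1 1.36-fold lower (-0.44 ± 0.09). Gins1 was 1.38-fold lower (-0.47 ± 0.10), Rfc4 1.33-fold lower (-0.42 ± 0.12), Pola2 1.32-fold lower (-0.40 ± 0.13) and Pcna 1.19-fold lower (-0.25 ± 0.08). With slide as a block 3 of the 8 calls remained, those of Pold2, Rpa1 and Dut, and without sham replicate 1 the count was 5. At 3 days these 3 genes had not been past the threshold. On the brightest probe of each, Gins1, Pola2, Rfc4 and Pcna crossed sham, being higher at 3 days and lower at 14 days. The second Rfc4 probe was not past the threshold at 14 days (-0.22 ± 0.20). Of 21 alternatives outside single slides, the 14-day call held in 20 for Gins1, 16 for Rfc4, 11 for Pola2 and 7 for Pcna.

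**Figure D4:**
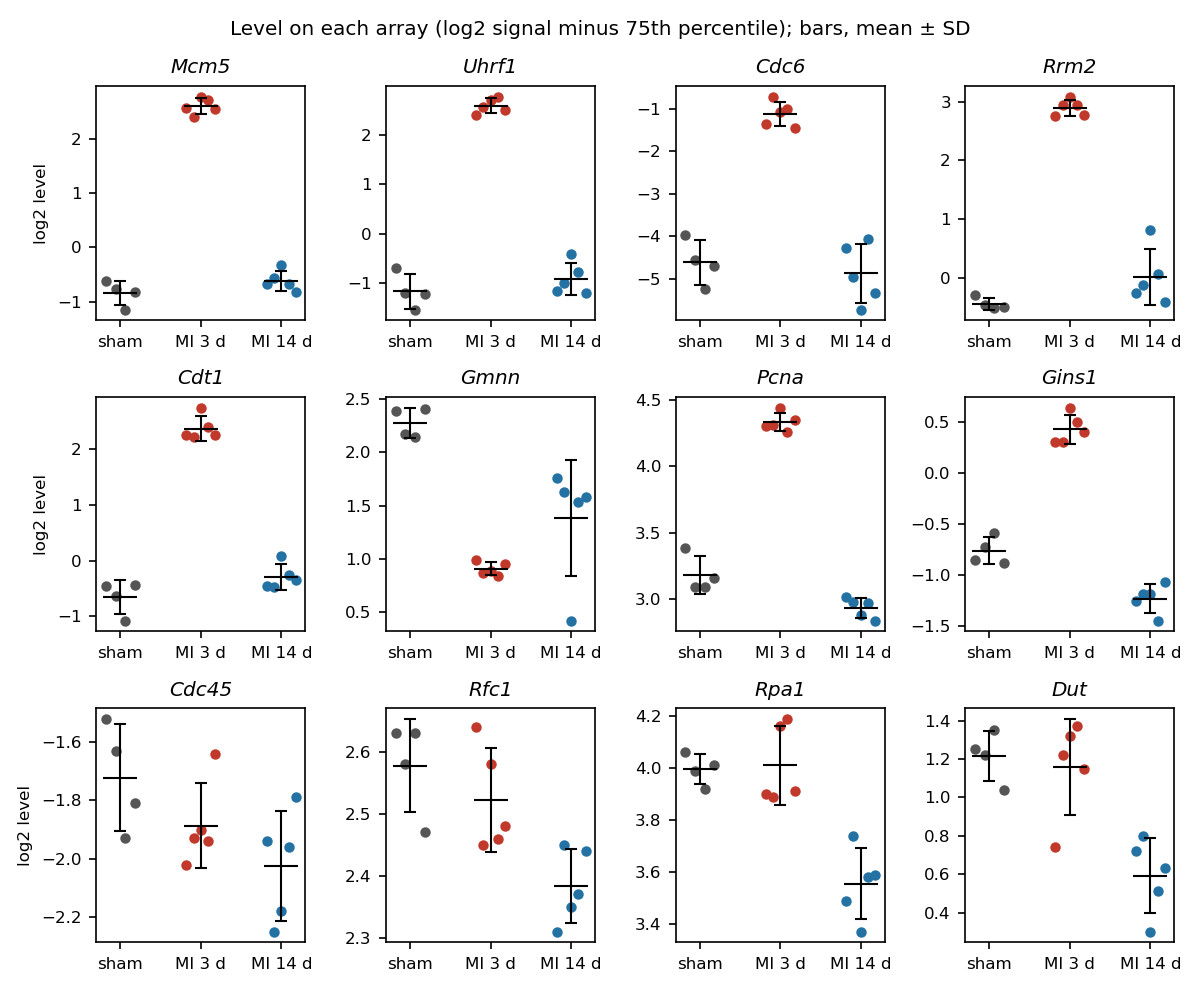
Each panel shows 1 gene's level on every array (points) with the group mean and SD (bar), on log2 intensity minus the array's 75th percentile, with a y axis of its own. Mcm5 and Uhrf1 return at 14 days to the range near sham, while Gmnn is lowest at 3 days (0.91 ± 0.06, n = 5).

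Between the MI groups, 40 of the 45 members were lower at 14 days than at 3 days and none was higher, beside 22.9% lower and 32.7% higher among all tested probes and 26.9% and 33.6% among the named genes. The median change was -1.73, against 0.13 over all probes, and the groups did not overlap for 39 members, against 40.0% of probes. At an unadjusted p under 0.05 there was 1 higher member, Gmnn, by limma, and it passed the threshold without replicate 3 at 14 days. Among the 43 members well above background on all 10 scanner arrays, the largest falls on the brightest probe were in Uhrf1 (-3.51 ± 0.17), Mcm5 (-3.21 ± 0.12) and Tk1 (-3.21 ± 0.17). Cdc6, above background on 1 of 4 arrays at 14 days, had a fitted difference of -3.75 ± 0.31, between -3.95 and -1.11 over the alternatives, and of -2.48 ± 0.38 on its second probe. Rrm2 fell by 2.89 and Cdt1 by 2.67 on the log2 scale. Orc1, Gmnn, Cdc45, Rfc1 and Tyms were not past the threshold. This comparison shares its 3-day arrays with the comparison of 3 days and sham. Within the 1 slide that held both MI groups, with 1 array at 3 days against 3, 27 members were lower and 0 higher by limma (37 and 0 at an unadjusted p under 0.05).

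The scaling between arrays shifts all changes alike. With each array's median in place of its 75th percentile, the median over all tested probes at 3 days against sham was -0.01 instead of -0.19, and between the MI groups -0.06 instead of 0.13. The calls over all probes then moved from 8219 higher and 12823 lower to 9933 and 9536 at 3 days. They moved from 10551 and 7396 to 6162 and 9812 between the MI groups. At 14 days against sham, scaling on the tested probes alone gave 5151 higher and 4561 lower in place of 4118 and 6374. The 39 members called at 3 days kept their sign under every alternative run.

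Other genes of the same steps were read from lists named by function. For 12 genes of these lists the probe was not well above background on every scanner array. All of these but Dck (bright in sham too) and Dbf4 (bright at 14 days too) were tested only because they were bright at 3 days, so their rise was a condition of being tested. Each list is therefore also counted over its genes above background on all 10 scanner arrays. Of all named genes tested, 29.8% were higher and 40.5% lower at 3 days, and 15.9% and 24.2% at 14 days. Of 13 further licensing and firing genes tested, 9 were higher and 1 lower at 3 days (median 1.19), and of the 10 above background throughout 6 and 1 (median 0.68). Ticrr, which helps to fire origins, was at least 11.6-fold higher and was not well above background on any sham array. Dbf4, the activator of the Cdc7 kinase, had a fitted rise of 2.89 ± 0.23 with 2 of 4 sham arrays above background, and Recql4 was 2.87-fold higher (1.52 ± 0.11). Orc3, a core origin subunit, was lower (-0.52 ± 0.08), and Orc4 and Orc5 were not past the threshold (-0.14 ± 0.12 and -0.09 ± 0.15). At 14 days 0 of the 13 were higher by limma, also at an unadjusted p under 0.05, and 1, Orc3, was lower (-0.50 ± 0.08).

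Of 24 fork, clamp and Okazaki fragment factors, 17 were higher and 1 lower at 3 days (median 0.72), and of the 19 above background throughout 12 and 1 (median 0.41). Top2a, the topoisomerase of dividing cells, had a fitted rise of 4.22 ± 0.41 with 3 of 4 sham arrays above background, and the nuclease Exo1 of 4.14 ± 0.49 with 2 of 4. Clspn, which links the fork to its checkpoint, was at least 3.88-fold higher. Top1, a topoisomerase of all cells, was lower by a small amount (-0.20 ± 0.08), and Top2b was not past the threshold (-0.21 ± 0.09). At 14 days 2 were higher, Timeless (0.58 ± 0.09) and Pold4 (0.35 ± 0.10), and 3 were lower.

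Among 18 further genes of nucleotide supply, 10 were higher and 5 lower at 3 days (median 0.56), and of the 16 above background throughout 8 and 5 (median 0.37). The salvage enzyme Dck was 4.09-fold higher (2.03 ± 0.25), Dctd had a fitted rise of 2.22 ± 0.36 with 1 of 4 sham arrays above background, and Nme1 was 2.88-fold higher (1.53 ± 0.09). Rrm2b, the ribonucleotide reductase subunit used outside S phase, was lower (-1.35 ± 0.22), while its S-phase counterpart Rrm2 was higher. Dguok, a mitochondrial kinase, and Nme2 were also lower (-0.91 ± 0.10 and -0.62 ± 0.08). At 14 days 0 of the 18 were higher and 3 lower by limma (1 and 5 at an unadjusted p under 0.05).

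Of 20 further genes of chromatin copying, 11 were higher and 4 lower (median 0.29), and of the 19 above background throughout 10 and 4 (median 0.27). Hells, a remodeller that aids DNA methylation, had a fitted rise of 4.32 ± 0.51, with 1 of 4 sham and 2 of 4 arrays at 14 days above background. The histone chaperone Asf1b was 7.42-fold higher (2.89 ± 0.11), and its paralog Asf1a was lower (-0.76 ± 0.12). Dnmt3a, a de novo methyltransferase, was lower (-1.48 ± 0.11), while the maintenance enzyme Dnmt1 was higher. At 14 days 2 of the 20 were higher (10.0%) and 4 lower (20.0%). Tonsl was still higher (0.67 ± 0.14), and Hells, mostly near background in both groups and overlapping between them, had a fitted difference of 1.77 ± 0.51. The lower ones included Dnmt3a (-0.44 ± 0.11), Hat1 (-0.40 ± 0.09) and Rbbp7 (-0.37 ± 0.09).

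The genes that control entry into S phase split in direction. Of 25 tested, 14 were higher and 6 lower at 3 days (median 0.46), and of the 24 above background throughout 13 and 6 (median 0.39). Dtl, which marks Cdt1 for destruction in S phase, had a fitted rise of 4.05 ± 0.31 with 2 of 4 sham arrays above background. Ccna2, cyclin A, differed by 3.91 ± 0.22 on the log2 scale, and Fbxo5 was 7.97-fold higher (3.00 ± 0.12). Tfdp2, a partner of E2F factors, was lower (-1.67 ± 0.11), as were the repressor E2f6 (-1.40 ± 0.13) and the Rb relative Rbl2 (-0.64 ± 0.14). At 14 days 5 were higher, including E2f2 (0.74 ± 0.20), Rbl1 (0.63 ± 0.15) and E2f1 (0.58 ± 0.18), while Tfdp2 (-0.79 ± 0.11) and E2f6 (-0.64 ± 0.13) were lower.

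Replication of mitochondrial DNA uses a separate set of proteins, and most of its genes were lower. Of 17 tested, 12 were lower and 3 higher at 3 days (median -0.57), and 10 were lower and 0 higher by limma at 14 days (median -0.31, with 11 and 2 at an unadjusted p under 0.05). Twnk, the mitochondrial helicase, was lower at 3 days (-1.35 ± 0.16), as were the nuclease Mgme1 (-1.29 ± 0.17) and the transcription factor Tfb2m (-1.28 ± 0.21). Primpol, Rnaseh1 and Top3a were higher (0.72 ± 0.19, 0.49 ± 0.08 and 0.31 ± 0.11). The list shares Dguok and Tk2 with the list of nucleotide supply.

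**Figure D5:**
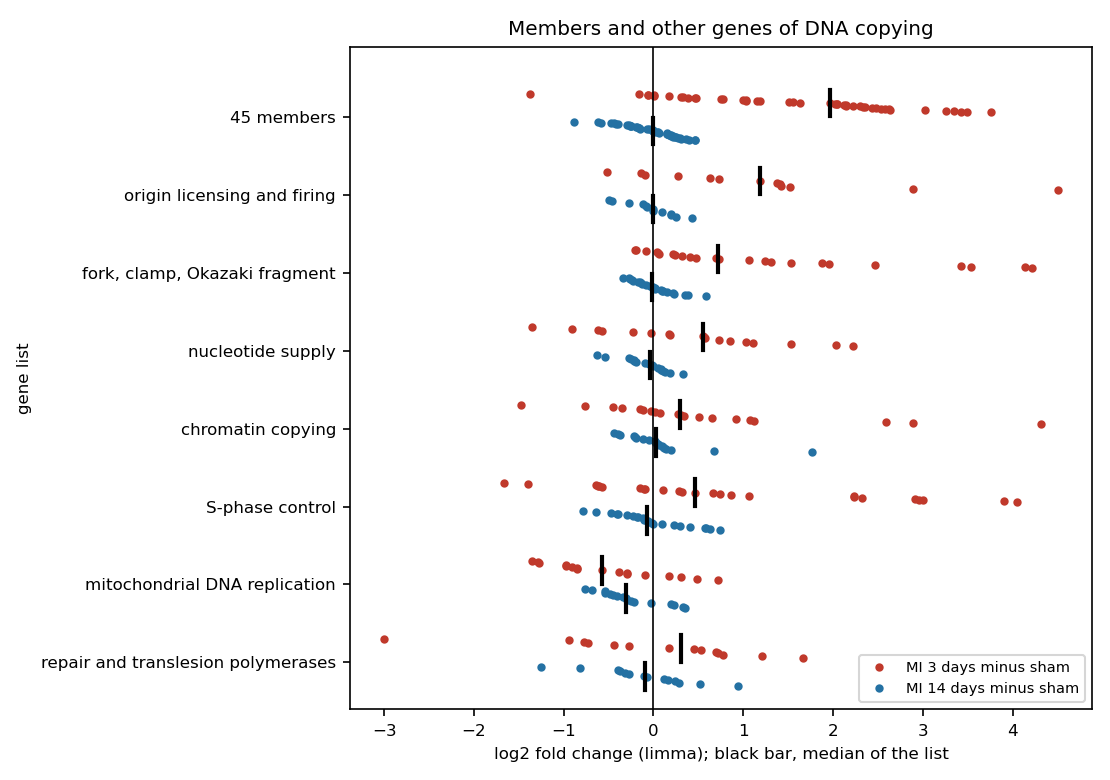
For each list of related genes, points are the fitted log2 differences from sham of its tested genes at 3 days and 14 days, with the median marked and dim genes included. At 3 days the licensing list has the highest median of those that are not members (1.19, or 0.68 without its dim genes) and the mitochondrial list the lowest (-0.57).

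Markers of other cell types moved at the same time. The mean level of 12 macrophage markers was 0.80 to 1.20 in sham, 3.74 to 4.44 at 3 days and 1.71 to 2.05 at 14 days. At 3 days 11 of the 12 were higher, and 9 of 10 without Spp1 and Arg1, which were not above background on every scanner array. For 9 neutrophil markers the mean level was -2.03 to -1.49, 0.71 to 2.03 and -2.27 to -1.07, and Clec4e, Mmp8 and Mmp9 were not well above background on any sham array. For 10 fibroblast markers it was 3.36 to 3.49, 4.56 to 4.99 and 4.69 to 5.32, with 10 of 10 higher at 14 days. For 10 endothelial markers it was 2.45 to 2.53, 2.21 to 2.39 and 2.38 to 2.52, and for 7 lymphocyte markers -2.11 to -1.62, -1.73 to -1.08 and -2.11 to -0.81. The 12 cardiomyocyte markers stood at 8.42 to 8.62, 7.18 to 7.48 and 8.03 to 8.57, with 12 of 12 lower at 3 days. Of 10 genes of mitosis and cell-cycle progression, such as Bub1, Cdk1 and Plk1, all 10 were higher at 3 days (median 4.02; 7 of 7 and 3.77 without the dim Bub1, Cdk1 and Ccnb1) and 1 at 14 days. The part of the cell types in the members' changes was not tested.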

How the data were processed

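The authors deposited a table of 1-colour Cy3 intensity values, 1 per probe and array, and scanner output of 10 arrays made with Agilent Feature Extraction 10.7.3.1, per the file headers. For single-spot probes the table equals the scanner's processed signal on these arrays (55050 of 55050 per array, tolerance 1e-05). Here log2 was taken of the deposited intensity and each array's 75th percentile over 55482 non-control probes was subtracted. Probes were named by accession through RefSeq genes of GRCm38.p6 (27144 of them), and a gene stands on its probe with the highest mean level. The fit took the 32261 probes that rose well above background on all scanner arrays of 1 or more groups, and used limma 3.58.1 in R 4.3.3 (lmFit, eBayes, two-sided, Benjamini-Hochberg over all of them). The methods of the study were not given in the sources used here. A bound ("at least") compares the bright group's mean with a floor, which is the mean over scanner arrays of the dim group of the lowest well-detected signal or, where larger, the signal of that probe. On data simulated for MI 3 days against sham (32261 probes), 77% of 2-fold and 98% of 4-fold changes were recovered. Only 100 probes were changed at each size, with 16 false calls, whereas 21042 probes were called in the data. Recovery in the data may therefore differ. Members and lists were chosen with earlier results of these data known. All 45 members may be named, and of each other list at most the 3 genes with the highest and the 3 with the lowest change. Replicates are taken as separate mice from the design text. Alternatives (29 over the 3 comparisons together) varied the scaling, probe filter, probe per gene, scanner values, background correction, slide, replicate number and replicates left out.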

Additional observations from a re-analysis of the deposited data

Results flagged for a closer look

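In 5 of 135 sets of arrays (45 members in 3 groups) 1 array stood apart from the others of its group, where chance flags about 1 in 20 sets. Of these, 3 are MI 14 days replicate 3. That array had 68 non-uniform spots over all its probes, and whether these 3 probes are among them was not tested. Gmnn was at 0.42 there against 1.53 to 1.76 on the other 4 arrays, Mcm2 at -0.55 against -0.93 to -0.83, and Rfc5 at 0.57 against 0.25 to 0.33. In sham, Orc1 was at -5.16 on replicate 1 against -4.79 to -4.75, and Rfc5 was at 0.20 on replicate 2 against 0.07 to 0.09.

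The difference from sham was itself different at 3 and at 14 days for 40 members, by the limma test between the MI groups, which shares no sham array. Past the threshold at both times on the brightest probe, 4 of them were higher than sham at 3 days and lower at 14 days. A second Rfc4 probe was not past it at 14 days (-0.22 ± 0.20). Gins1, a GINS subunit, changed by -1.66 from 3 to 14 days, Pola2 by -0.86, Rfc4 by -0.74 and the clamp Pcna by -1.40.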

How the results depend on the processing

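No member past the threshold in a comparison changed sign in it under the alternatives run for that comparison (23 for most members, fewer for Cdc6 and Orc1). At 3 days 6 of 39 calls ended under at least 1 alternative outside single slides (Gins4, Orc1, Rfc4, Pola2, Gins3 and Rpa2), at 14 days 11 of 14, and between the MI groups 3 of 40 (Gins4, Pola2 and Pold2). The cause was not tested. Within slides 2 and 3, each with 1 array of either group, the calls over all probes at 3 days were 6915 and 4090 instead of 21042, and 0 members were lower instead of 1 (0 and 1 at an unadjusted p under 0.05). At 14 days against sham, 6 members were higher. This was 2 with median scaling, with scanner signals, with scanner signals under quantile normalization and with normexp, 3 with no probe filter or with the 2 groups alone, and 0 with slide as a block or within slides 1 and 3. The 8 lower were 3 with slide as a block and 0 within slides 1 and 3 (3 and 4 at an unadjusted p under 0.05). The calls over all probes were 5081 with slide as a block and 30 and 1 within slides 1 and 3, instead of 10492. Leaving out 1 array gave 3 to 6 higher and 5 to 9 lower members. Between the MI groups the calls over all probes were 11483 with scanner signals under quantile normalization, 10620 with normexp, 9129 with slide as a block and 1642 within slide 3, instead of 17947. Here 1 member, Gmnn, was higher with quantile normalization, the percentile of tested probes, the strictest probe filter or a replicate block, and leaving out 1 array gave 0 to 1.

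The replicate number paired no samples by the correlation of deviations (-0.135 to 0.225). With the replicate block, 37 members were higher and 1 lower at 3 days, 4 and 8 at 14 days, and 1 and 41 between the MI groups.

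The 6 members not past the threshold at 3 days had no settled sign. Rfc1 was 0.04 with quantile normalization, 0.12 with median scaling and 0.01 within slide 3. Cdc45 was 0.02 with median scaling, 0.03 with scanner quantiles, 0.05 with slide as a block and 0.17 within slide 3. Dut was 0.12 with median scaling, 0.04 with scanner signals, 0.06 with scanner quantiles, 0.10 with normexp, 0.08 with slide as a block, and 0.01 and 0.12 within slides 2 and 3. Pold2 was -0.04 with scanner signals and with normexp, -0.03 with scanner quantiles and with the replicate block, -0.15 with slide as a block and -0.26 within slide 3. Tyms was -0.00 with normexp, and Rpa1 was -0.10 within slide 3. Leaving out 1 array gave -0.05 to 0.05 for Pold2, -0.03 to 0.04 for Rpa1 and -0.12 to 0.05 for Dut.

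The planned normexp on mean spot signals was not run, since the scanner files used here hold median signals. Normexp on those, chosen after seeing the data, took its place. Dim probes limit Orc1, Cdc6 and the second probes of Pole and Uhrf1.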

Other observations

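The polymerases of repair and of lesion bypass copy short or damaged stretches, and their list here also holds partners such as Rad18. Its genes did not move as 1 group. Of 14 tested, 6 were higher (42.9%) and 5 lower (35.7%) at 3 days (median 0.31), beside 29.8% and 40.5% of the named genes. At 14 days 3 were higher (21.4%) and 4 lower (28.6%), with a median of -0.09. These shares are near the 15.9% and 24.2% of the named genes. Rad18, the ligase that modifies PCNA at damaged forks, was 3.18-fold higher at 3 days (1.67 ± 0.16), and the bypass polymerases Polh and Poli were 2.31-fold and 1.72-fold higher (1.21 ± 0.09 and 0.78 ± 0.12). Poln was 8.00-fold lower (-3.00 ± 0.37), Polq 1.92-fold lower (-0.94 ± 0.14) and Rev1 1.71-fold lower (-0.77 ± 0.15). At 14 days Poli was still higher (0.94 ± 0.12), and Poln and Polq were still lower (-1.25 ± 0.37 and -0.82 ± 0.14).

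Outside the members, 477 tested genes had an E2F match in a promoter, and 181 of them (37.9%) were higher at 3 days, with a median change of 0.00. Of 11285 tested genes with a promoter and no match, 3255 (28.8%) were higher, with a median of -0.17. At 14 days the shares were 15.1% and 15.3%. Genes tested only through a group in which they were bright are among them. These are descriptions of genes that are not independent of each other, and no test was run.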
